A study of Mus musculus with 64 samples.

Results

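The Serpina genes are the clade A serpins, a family of secreted protease inhibitors and hormone carriers that the liver makes in large amounts. The 10 genes described here were taken by name from the count table: Serpina1a, Serpina1c, Serpina1e, Serpina3k, Serpina3m, Serpina3n, Serpina6, Serpina7, Serpina12 and the annotated pseudogene Serpina4-ps1. They are 10 of the 53008 genes of the table and 10 of its 29 clade A names, and all 10 passed the filter on low counts, which left 17318 genes to test. The study sequenced liver RNA of wild-type (WT) mice, which carry mouse Mogat2, and of HuMgat2 mice, which express human MOGAT2, an enzyme of triglyceride synthesis. Each genotype was fed a chow diet or a high-fat diet (HFD) for 16 weeks, which gave WT chow, WT HFD, HuMgat2 chow and HuMgat2 HFD with 4 libraries each. The labels give no strain, sex, age or promoter, and human MOGAT2 is not a row of the mouse annotation that could check the genotype. Mouse Mogat2 lay between 0 and 0.486 CPM (counts scaled to a common library size) in every library, WT included, so it checks nothing either.

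A serpin carries an exposed reactive loop that a protease mistakes for a substrate. Cleavage of the loop traps the protease in a covalent complex, and the residue just before the cut largely decides which protease is caught. Serpina1 copies encode alpha-1 antitrypsin, the main plasma inhibitor of neutrophil elastase. The Serpina3 copies are the mouse relatives of human antichymotrypsin, and Serpina3n is an acute phase inhibitor. Serpina6 encodes corticosteroid-binding globulin and Serpina7 thyroxine-binding globulin, which carry hormones and inhibit no protease. Serpina12 encodes vaspin, an inhibitor of kallikrein 7 that was first described in adipose tissue.

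Library totals ran from 12422647 to 25812129 counts. The library WT HFD 4 was the smallest and stood apart from its group: its median Spearman correlation with the other WT HFD libraries was 0.954, against 0.978 to 0.990 for the other 15 libraries, and Alb took 0.850% of its counts against 3.26% to 6.02% elsewhere. All 9 hepatocyte markers in the table were detected in each group, and their summed level lay between 45350 and 96730 CPM in the 16 libraries. Ddx3y, a Y-linked gene, lay between 64.4 and 95.4 CPM and Xist between 0 and 1.5 CPM, so no library held a female level of either. The labels do not say that the libraries of a group are separate mice, so the p-values measure the spread between these libraries. In bulk liver, fewer cells of a type and less RNA per cell cannot be told apart.

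In build GRCm39, as in the count table, 9 of the 10 genes lie in 768 kb of chromosome 12, from 103612889 to 104380588, in a cluster that holds 28 of the clade A names. Serpina6 lies from 103612889 to 103623471, Serpina1a from 103819848 to 103829814, Serpina1c from 103861185 to 103871146, Serpina1e from 103913190 to 103925234 and Serpina12 from 103995028 to 104010702. Beyond them lie Serpina4-ps1 from 104046908 to 104052983, Serpina3k from 104304745 to 104312403, Serpina3m from 104304745 to 104360516 and Serpina3n from 104372988 to 104380588. Serpina7 lies apart, on chromosome X from 137980006 to 137985966. Serpina6, Serpina7, Serpina12 and the Serpina1 copies are on the minus strand and Serpina4-ps1 and the Serpina3 members on the plus strand. Serpina3k and Serpina3m share 60 exon bases, 2.92% of the exon length of Serpina3k and 3.49% of that of Serpina3m.

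The reactive loop differs between the Serpina1 copies, so its coding sequence is shown for all 5 copies. It is given as 60 coding bases that end where the conserved serpin signature begins (GENCODE transcripts of GRCm38). Capitals mark the 13 bases that are not the same in all 5.

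Serpina1a: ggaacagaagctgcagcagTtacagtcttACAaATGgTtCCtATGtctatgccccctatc
Serpina1b: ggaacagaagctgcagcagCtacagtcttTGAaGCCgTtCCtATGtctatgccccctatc
Serpina1c: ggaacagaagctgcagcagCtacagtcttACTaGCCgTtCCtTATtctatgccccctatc
Serpina1d: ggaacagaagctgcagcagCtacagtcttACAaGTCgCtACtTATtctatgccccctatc
Serpina1e: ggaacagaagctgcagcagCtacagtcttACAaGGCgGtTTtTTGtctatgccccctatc

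The last capital triplet is the codon of the residue before the cut, by its place beside the serine codon that follows. It is ATG, the codon of methionine, in Serpina1a and Serpina1b. It is TAT, a tyrosine codon, in Serpina1c and Serpina1d, and TTG, a leucine codon, in Serpina1e. The copies are otherwise close: their whole coding sequences were 96.3% to 98.5% identical, with Serpina1a and Serpina1c the closest pair. Of the 100-base windows of each transcript, 47.4% of Serpina1a, 58.5% of Serpina1c and 18.2% of Serpina1e occurred letter for letter in another Serpina1 copy. With 50-base windows the shares were 60.0%, 73.3% and 37.9%. A read wholly within such a window cannot be placed by its own bases, though its mate may lie outside the window. In the count table, pairs of near-identical genes had nearly equal counts (Rn7s1 and Rn7s2 differed by at most 0.029% in any library), and Serpina1a and Serpina1c stood at a ratio of 0.950 to 1.02 in all 16 libraries. The changes of Serpina1a and Serpina1c are therefore not 2 independent measurements.

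The loops of the Serpina3 members are shown in the same window because they diverge after a shared run of 14 bases. Capitals mark everything after that run.

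Serpina3k: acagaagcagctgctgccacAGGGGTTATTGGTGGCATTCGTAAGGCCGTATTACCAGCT
Serpina3m: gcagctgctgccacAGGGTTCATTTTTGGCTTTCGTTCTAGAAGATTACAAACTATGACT
Serpina3n: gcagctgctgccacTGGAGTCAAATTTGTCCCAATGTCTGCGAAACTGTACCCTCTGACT

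Coding identity was 92.6% between Serpina3k and Serpina3m, 83.8% between Serpina3k and Serpina3n and 85.2% between Serpina3m and Serpina3n. Of the 100-base windows, 4.85% of Serpina3k, 6.09% of Serpina3m and 0.20% of Serpina3n were shared with another clade A gene. With 50-base windows the shares were 14.0%, 19.1% and 6.9%. Serpina3k stood at 4643 CPM and Serpina3m at 239.5 CPM in WT chow. Shared reads from Serpina3k can therefore weigh in the level of Serpina3m, by an amount that was not measured. No window of either length was shared by Serpina6, Serpina7, Serpina12 or Serpina4-ps1, so the counts of these 4 genes do not mix with those of the family.

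The promoters of the Serpina1 copies are shown because these genes moved together. RefSeq (GRCm38.p6) gave a start site for Serpina1a, Serpina1c, Serpina1e, Serpina3n, Serpina7 and Serpina12 among the members, and the 120 bases before it are printed for the Serpina1 members, all on the minus strand. They lie at chr12:103863620-103863739 for Serpina1a, chr12:103904951-103905070 for Serpina1c and chr12:103956898-103957017 for Serpina1e. Capitals mark GTTAAT, the core of the binding motif of HNF1, a liver transcription factor.

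Serpina1a: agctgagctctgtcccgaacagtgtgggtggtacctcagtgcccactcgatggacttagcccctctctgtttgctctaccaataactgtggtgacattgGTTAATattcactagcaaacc
Serpina1c: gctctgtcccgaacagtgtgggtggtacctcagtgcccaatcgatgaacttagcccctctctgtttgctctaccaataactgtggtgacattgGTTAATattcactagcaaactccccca
Serpina1e: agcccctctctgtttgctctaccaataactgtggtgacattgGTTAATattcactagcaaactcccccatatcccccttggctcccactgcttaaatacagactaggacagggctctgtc

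The motif begins 21 bases before the start site of Serpina1a, 27 before that of Serpina1c and 78 before that of Serpina1e. Searched on both strands of the window from 250 bases before to 50 after the start site, GTTAAT occurred in 7.10% of 32851 promoters. It was also present for Serpina7 and was not in the windows of Serpina3n and Serpina12. TTGCNNAA, a C/EBP-like motif found in 10.8% of the promoters, was in the windows of Serpina1a, Serpina1e, Serpina7 and Serpina12, and TTCNNNGAA, a STAT-like motif found in 8.30%, was in none of the 6. None of these motifs overlapped another.

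Compared per kilobase of exon, since longer genes collect more counts, the Serpina1 members were the most abundant. On the scale of CPM per kilobase (TMM-scaled, means of the 4 WT chow libraries), Serpina1c stood at 7691, Serpina1a at 6531, Serpina1e at 4502 and Serpina3k at 2257. Far below them came Serpina3m at 139, Serpina3n at 98.5 and Serpina6 at 90.1, followed by Serpina4-ps1 at 28.9, Serpina7 at 26.0 and Serpina12 at 2.88. In WT chow the ranges of neighbouring genes overlapped except between Serpina1e and Serpina3k, Serpina3k and Serpina3m, Serpina6 and Serpina4-ps1, and Serpina7 and Serpina12. The order of the lower 6 genes was not the same in every group: in HuMgat2 HFD, Serpina3n (210 CPM per kilobase) and Serpina3m (201) overlapped, and Serpina4-ps1 was last at 1.07. The 10 genes together took 3.42% ± 0.182 (SD, n = 4) of all counts in WT chow and 3.82% ± 0.176 in HuMgat2 chow, but 2.78% ± 0.234 in WT HFD and 1.86% ± 0.274 in HuMgat2 HFD. A read that matches several Serpina1 copies counts for each of them. The levels of these copies, and the shares of all counts, are therefore raised by an amount that was not measured. Serpina1a and Serpina1c had nearly equal counts, and their order per kilobase follows their exon lengths of 1581 and 1361 bases.

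**Figure D1:**
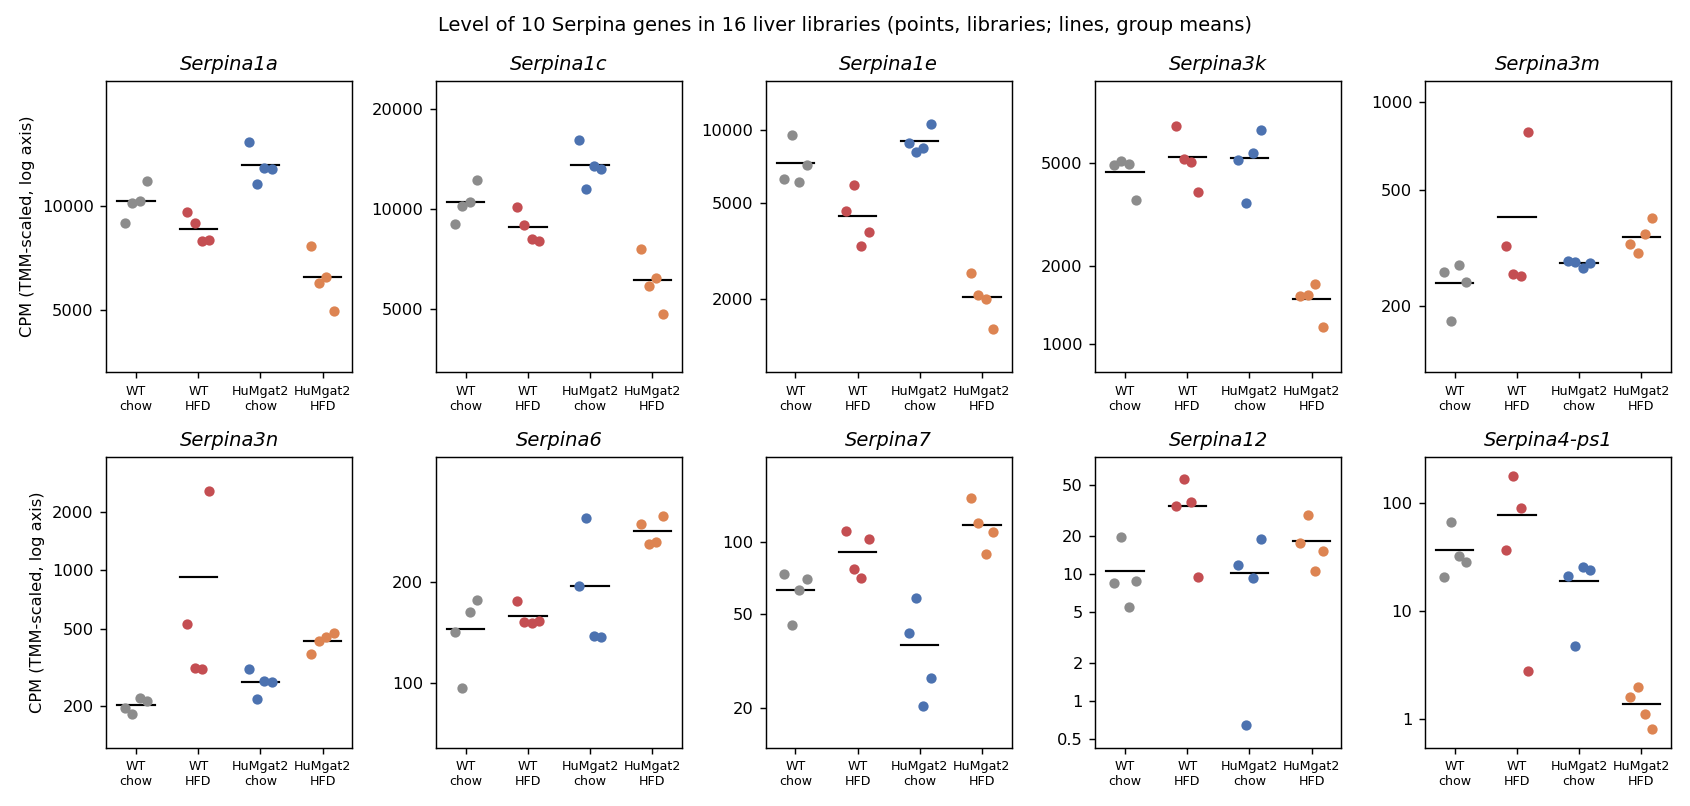
Level of each gene in CPM (log axis) in the 16 libraries; points are libraries and lines are means of the 4 libraries of a group. In HuMgat2 HFD all 4 libraries lie below all others for Serpina1a, Serpina1c, Serpina1e, Serpina3k and Serpina4-ps1. WT HFD 4 is the high point of Serpina3n at 2567 CPM.

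Counted by edgeR's quasi-likelihood test over all 17318 genes, with an adjusted p below 0.05 as the call, more members were called for HFD in HuMgat2 than in WT. In WT mice, 1 of the 10 genes was higher on HFD and 1 lower, against 8.37% and 6.74% of all genes tested. In HuMgat2 mice, 1 was higher and 5 were lower, against 7.56% and 6.40% of all genes. Between genotypes on chow, 0 were higher and 0 lower, against 0.266% and 0.243%. At an unadjusted p below 0.05, 0 members were higher and 1 was lower there, and DESeq2 and limma also called 0. Between genotypes on HFD, 1 was higher in HuMgat2 and 3 were lower, against 7.21% and 7.56%. The interaction, which tests whether the diet response differs between genotypes, was called for 0 genes in the positive direction and for 3 in the negative, against 2.61% and 2.26% of all genes. The median log2 change of the 10 genes was 0.36 for HFD in WT and -0.39 for HFD in HuMgat2, beside 0.03 and -0.01 over all genes tested. The comparisons share groups, and the Serpina1 members share reads, so these counts are not independent of each other. Markers of other cells moved with HFD in HuMgat2. Of 9 stellate cell markers, 5 were higher and 0 lower there, and their summed level was 430 to 487 CPM in HuMgat2 HFD, 216 to 348 CPM in HuMgat2 chow, 306 to 390 CPM in WT HFD and 229 to 300.5 CPM in WT chow. Of 9 tested hepatocyte markers, 0 were higher and 2 were lower there, Cps1 of the urea cycle (2.64-fold) and Ahsg, a secreted glycoprotein gene (1.52-fold), and their summed level overlapped between diets (69990 to 96730 CPM on chow and 68930 to 79960 CPM on HFD). The part of cell makeup in the members' levels was not tested.

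**Figure D2:**
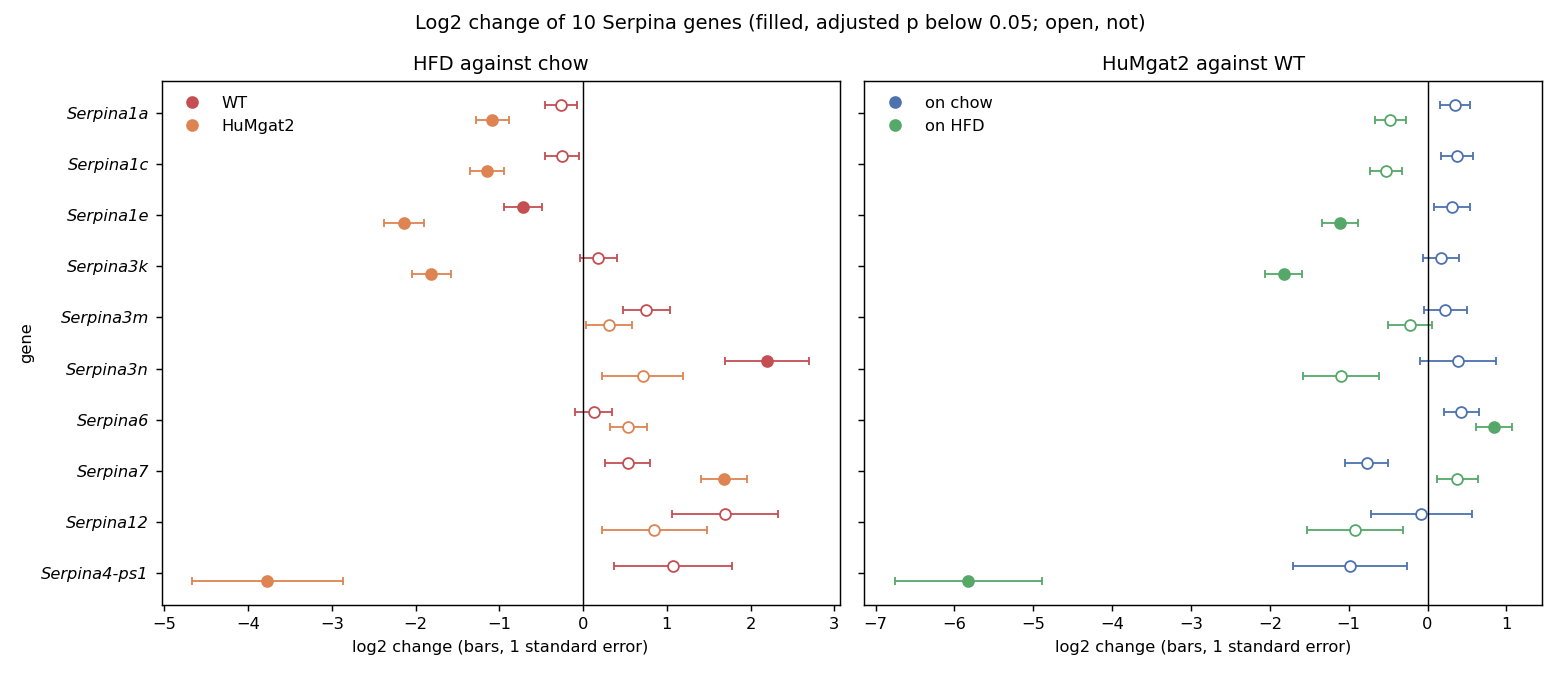
Log2 change of each gene with 1 standard error, for HFD against chow (left) and HuMgat2 against WT (right); filled points have an adjusted p below 0.05. The orange points of HuMgat2 lie left of 0 for Serpina1a, Serpina1c, Serpina1e, Serpina3k and Serpina4-ps1, and no blue point (on chow) is filled.

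Among the alpha-1 antitrypsin genes, Serpina1e, the copy with a leucine codon before the cut, responded most. Its level was 6284, 9562, 6078 and 7196 CPM in WT chow and 4628, 5940, 3323 and 3780 CPM in WT HFD. In HuMgat2 chow it was 8861, 8092, 8464 and 10620 CPM, and in HuMgat2 HFD 2569, 2078, 2018 and 1506 CPM. Within each genotype the HFD libraries lay below every chow library, and the HuMgat2 HFD libraries lay below every WT HFD library. On HFD it fell 4.41-fold in HuMgat2 (log2 change -2.14 ± 0.24 SE, adjusted p = 2.42e-05) and 1.65-fold in WT (log2 change -0.72 ± 0.23 SE, adjusted p = 0.0428). On HFD, HuMgat2 stood 2.16-fold below WT (log2 change -1.11 ± 0.23 SE, adjusted p = 0.00436), and its interaction was -1.42 ± 0.32 SE (adjusted p = 0.0179). The fall in HuMgat2 kept its call under every alternative run. The call in WT is weak: it was lost with only the 2 groups fitted (adjusted p = 0.11) and without any 1 of 10 libraries, namely WT chow 5, 6, 7 or 8, WT HFD 1, 3 or 4, HuMgat2 chow 15 and HuMgat2 HFD 10 or 11, with adjusted p up to 0.132.

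Serpina1a and Serpina1c, the copies with methionine and tyrosine codons there, fell about as much as each other on HFD in HuMgat2. Serpina1a was at 15350, 11590, 12850 and 12840 CPM in HuMgat2 chow and at 7653, 5995, 6242 and 4950 CPM in HuMgat2 HFD. No HFD library reached a chow library, and the fall was 2.12-fold (log2 change -1.08 ± 0.20 SE, adjusted p = 0.00147). In WT the chow libraries lay at 8945 to 11830 CPM and the HFD libraries at 7900 to 9630 CPM, which overlap (log2 change -0.26 ± 0.19 SE, adjusted p = 0.398). Serpina1c gave 2.22-fold in HuMgat2 (log2 change -1.15 ± 0.20 SE, adjusted p = 0.00121) and no call in WT (log2 change -0.25 ± 0.20 SE, adjusted p = 0.439). For both genes the HuMgat2 HFD libraries lay below every WT HFD library. That difference was not called for Serpina1a (log2 change -0.47, adjusted p = 0.11) or Serpina1c (log2 change -0.53, adjusted p = 0.0865). It was called with DESeq2 (adjusted p = 0.018 and 0.0117) and with limma and quality weights (adjusted p = 0.0116 and 0.00751). With all 5 copies summed into 1 feature, in which a read counted for several copies counts more than once, the fall on HFD was 2.28-fold in HuMgat2 (log2 change -1.19 ± 0.25 SE, adjusted p = 0.005) and the WT value was -0.31 ± 0.25 SE (adjusted p = 0.451). The interaction missed the threshold for Serpina1a (-0.82 ± 0.27 SE, adjusted p = 0.106), Serpina1c (-0.90 ± 0.28 SE, adjusted p = 0.084) and the sum (-0.88 ± 0.36 SE, adjusted p = 0.189). DESeq2 and limma with quality weights called the interaction of Serpina1a (adjusted p = 0.00235 and 0.00876) and of Serpina1c (adjusted p = 0.00163 and 0.00624), and edgeR called that of Serpina1c without WT HFD 4 (adjusted p = 0.043).

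The share of Serpina1e in the Serpina1 counts had a lower mean on HFD in both genotypes, but no difference passed 0.05 after adjustment. Even differences without overlap between groups stood at 0.0571 after adjustment, since their permutation p was already the smallest possible. The lack of a call therefore decides little here. Serpina1e held 16.4% ± 2.38 (SD, n = 4) of the counts of the 5 copies in HuMgat2 chow and 8.35% ± 0.468 in HuMgat2 HFD, and 17.0% ± 3.06 in WT chow and 12.6% ± 2.12 in WT HFD. The HuMgat2 HFD libraries, at 7.69% to 8.71%, lay below all others, of which the lowest was at 10.6%. In an exact two-sided permutation test over libraries, the difference between diets in HuMgat2 was -8.04 percentage points (p = 0.0286, the smallest that 4 against 4 allows, and 0.0571 after Benjamini-Hochberg adjustment over the 4 comparisons). In WT it was -4.35 points (exact permutation p = 0.0857, adjusted 0.114). The difference between genotypes was -4.28 points on HFD (exact permutation p = 0.0286, adjusted 0.0571) and -0.591 points on chow (exact permutation p = 0.80). The share of Serpina1b, with a methionine codon, was not tested; it was 18.4% ± 0.782 in HuMgat2 chow and 22.8% ± 0.721 in HuMgat2 HFD. Those of Serpina1a and Serpina1c lay between 22.6% and 26.3% in all 16 libraries. Shared reads counted for several copies pull these shares together.

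**Figure D3:**
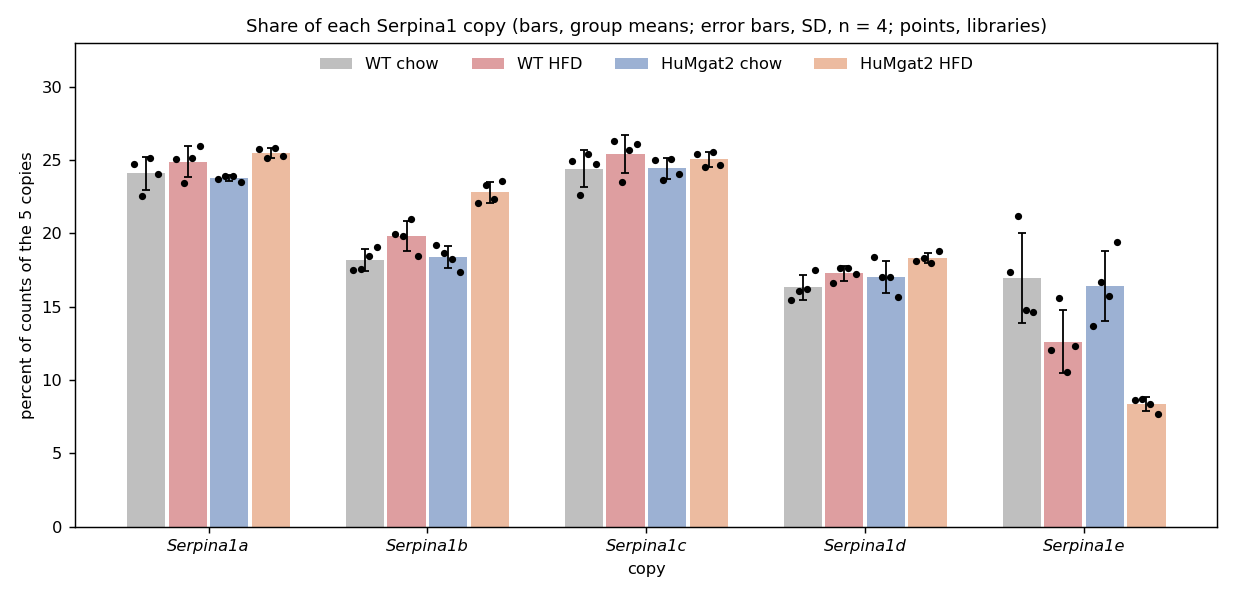
Percent of the summed counts of the 5 Serpina1 copies held by each copy, per group (bars, means; error bars, SD, n = 4; points, libraries). In HuMgat2 HFD the mean is 8.35% for Serpina1e and 22.8% for Serpina1b.

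Serpina3k, a relative of antichymotrypsin known to bind tissue kallikrein, fell on HFD in HuMgat2 mice. It was at 4927, 5088, 4949 and 3610 CPM in WT chow, 6943, 5216, 5061 and 3868 CPM in WT HFD and 5163, 3521, 5486 and 6733 CPM in HuMgat2 chow. In HuMgat2 HFD it was at 1532, 1548, 1708 and 1166 CPM. These 4 libraries lay below the other 12, whose ranges overlap between groups. The fall on HFD in HuMgat2 was 3.51-fold (log2 change -1.81 ± 0.23 SE, adjusted p = 7.94e-05), and on HFD the HuMgat2 level was 3.54-fold below that of WT (log2 change -1.83 ± 0.23 SE, adjusted p = 8.91e-05). In WT the diet change was 0.18 ± 0.23 SE (adjusted p = 0.642), and the interaction was -2.0 ± 0.32 SE (adjusted p = 0.00172). These 3 calls were kept under all alternatives run that measured the gene. With all Serpina3 copies summed into 1 feature, in which Serpina3k holds most counts, the fall on HFD in HuMgat2 was 2.54-fold (adjusted p = 0.000333).

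Serpina3n, the acute phase member that inhibits granzyme B and neutrophil elastase, rose on HFD in WT mice. Its level was 196, 183, 221 and 213 CPM in WT chow and 528, 312, 311 and 2567 CPM in WT HFD. In HuMgat2 chow it was 311, 216, 269 and 265 CPM, and in HuMgat2 HFD 370, 433, 455 and 477 CPM. Within each genotype no HFD library overlapped the chow range, but the WT HFD mean of 929.5 CPM rests largely on WT HFD 4. The rise in WT was 4.57-fold (log2 change 2.19 ± 0.50 SE, adjusted p = 0.00823) with that library and log2 0.92 ± 0.17 SE (adjusted p = 0.00154) without it. With only the 2 WT groups fitted the call was lost (adjusted p = 0.0625). In HuMgat2 the change on HFD was 0.71 ± 0.48 SE (adjusted p = 0.372), and without WT HFD 4 it was 0.71 (adjusted p = 0.00399). With only the 2 HuMgat2 groups fitted it was 0.70 (adjusted p = 0.00364). The interaction was not called (-1.48 ± 0.68 SE, adjusted p = 0.262), and without WT HFD 4 it lay at -0.21.

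Serpina3m was called in no comparison, and reads it shares with the more abundant Serpina3k were not separated from its counts. It was at 261, 179, 277 and 241 CPM in WT chow and at 321, 257, 253 and 786 CPM in WT HFD, where WT HFD 4 was again the high library. Its change on HFD in WT was 0.75 ± 0.28 SE (adjusted p = 0.0768) with that library and 0.21 (adjusted p = 0.345) without it. It passed the threshold without WT HFD 2 (0.92, adjusted p = 0.0391) or WT HFD 3 (0.92, adjusted p = 0.0359). HuMgat2 HFD, at 304 to 402 CPM, lay above HuMgat2 chow, at 270 to 285 CPM, with a log2 change of 0.31 ± 0.28 SE (adjusted p = 0.52). The difference between genotypes on HFD turned from -0.22 to 0.32 for Serpina3m, and from -1.10 to 0.18 for Serpina3n, when WT HFD 4 was left out, and it was called for neither gene either way.

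Other acute phase genes moved with Serpina3n in WT HFD 4. Saa1, a major acute phase protein gene, was at 123, 28.0, 26.9 and 7574 CPM in WT HFD and at 5.55 to 7.93 CPM in WT chow. Lcn2, which binds bacterial siderophores, was at 39.9, 8.47, 5.63 and 862 CPM in WT HFD and at 0.602 to 0.997 CPM in WT chow. Of the 26 genes listed as acute phase proteins and IL-6 signalling, 15 were higher and 0 lower on HFD in WT, with a median log2 change of 1.68, and 0 were higher and 1, Il6ra, was lower on HFD in HuMgat2. The shares of all genes were 8.37% and 6.74% in WT and 7.56% and 6.40% in HuMgat2. Without WT HFD 4 the counts of the list were 8 higher and 1 lower in WT and 2 higher and 8 lower in HuMgat2, beside 7.69% and 7.01%, and 10.7% and 8.58%, of all genes tested. The 2 higher genes were Lcn2 and Saa2, a close relative of Saa1. Lcn2 was at 0.949 to 2.71 CPM in HuMgat2 chow and at 9.44 to 21.9 CPM in HuMgat2 HFD, and Saa2 at 2.71 to 5.0 and 11.2 to 19.3 CPM, with no overlap for either. Their log2 changes there were 3.11 (adjusted p = 0.105) and 1.96 (adjusted p = 0.405) with all libraries and 3.11 (adjusted p = 0.000449) and 1.97 (adjusted p = 0.00124) without WT HFD 4. The summed level of the list was 75960 CPM in WT HFD 4 and 10760 to 17830 CPM in the other 15 libraries. The neutrophil markers, 9 genes of which none passed the filter, summed to 26.1 CPM in WT HFD 4 and to 0.194 to 1.84 CPM elsewhere, and Ly6g was at 0 in both chow groups. The macrophage markers summed to 847 CPM in WT HFD 4 and to 147 to 287 CPM elsewhere. The part of these cells in the level of Serpina3n was not tested.

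**Figure D4:**
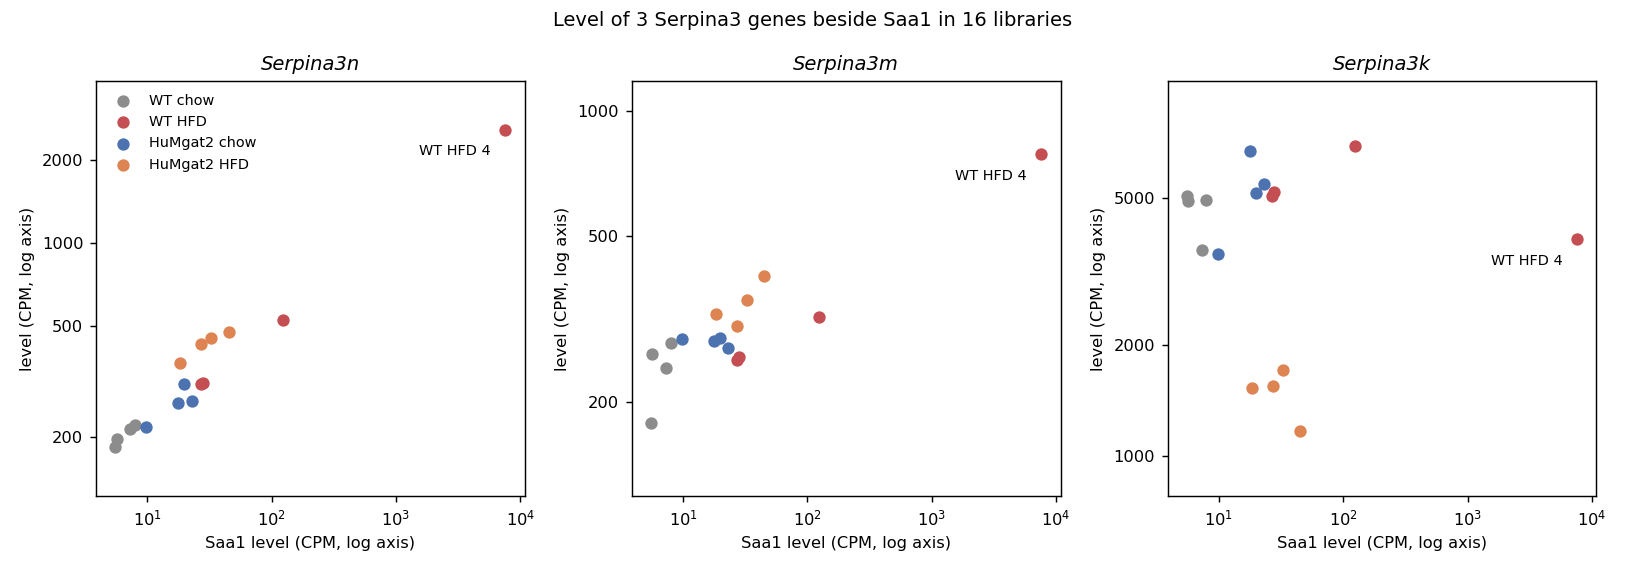
Level of Serpina3n, Serpina3m and Serpina3k against that of Saa1 (CPM, both axes log) in the 16 libraries, coloured by group. WT HFD 4 is the far right point in each panel, at 7574 CPM of Saa1, and the 4 HuMgat2 HFD libraries are the low points of Serpina3k.

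The 2 hormone carriers moved up, each in 1 comparison. Serpina7, the thyroxine carrier, was at 41.6, 58.3, 20.4 and 26.8 CPM in HuMgat2 chow and at 153, 120, 89.4 and 110 CPM in HuMgat2 HFD, with no overlap. The rise was 3.21-fold (log2 change 1.68 ± 0.27 SE, adjusted p = 6e-04) and was kept under every alternative run. In WT it was at 73.8, 44.8, 63.2 and 70.1 CPM on chow and at 112, 77.1, 71.1 and 104 CPM on HFD. These ranges overlap, and the change was 0.53 ± 0.27 SE (adjusted p = 0.194). The interaction was 1.15 ± 0.38 SE and missed the threshold with edgeR (adjusted p = 0.0957). It passed with DESeq2 (adjusted p = 0.0389), with limma and quality weights (adjusted p = 0.012), with no filter (adjusted p = 0.0409) and without HuMgat2 chow 14 (adjusted p = 0.0161). The gene's lowest levels were in HuMgat2 chow, which differed from WT chow by -0.77 ± 0.27 SE (adjusted p = 0.277).

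Serpina6, the corticosteroid carrier, was at 176, 152, 151 and 153 CPM in WT HFD and at 298, 259, 263 and 313 CPM in HuMgat2 HFD. The groups do not overlap, and the gene was 1.79-fold higher in HuMgat2 (log2 change 0.84 ± 0.22 SE, adjusted p = 0.0185). On chow it was at 142, 96.6, 163 and 177 CPM in WT and at 194, 310, 138 and 137 CPM in HuMgat2, where HuMgat2 chow 14 was as high as the HFD libraries. The change on HFD in HuMgat2 was 0.54 ± 0.22 SE (adjusted p = 0.121), and without HuMgat2 chow 14 it was 0.86 (adjusted p = 0.00472). The WT change was 0.13 ± 0.22 SE (adjusted p = 0.76), and the interaction was 0.41 ± 0.31 SE (adjusted p = 0.523).

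Genes tied to these hormones were also counted. Over all genes tested, 7.56% were higher and 6.40% lower on HFD in HuMgat2. Between genotypes on HFD, the shares were 7.21% and 7.56%. Of 13 tested genes listed as the glucocorticoid receptor and its targets, 0 were higher and 3 lower on HFD in HuMgat2, among them Tat, a tyrosine aminotransferase (2.85-fold lower), and Pck1, an enzyme of gluconeogenesis (2.37-fold lower). Between genotypes on HFD, where Serpina6 was higher, 0 were higher and 6 lower, but without WT HFD 4 only 2 were lower. Of 11 tested genes listed as thyroid hormone carriers, receptors and targets, 4 were higher and 2 lower on HFD in HuMgat2, with Hr, a corepressor gene, 3.79-fold higher and Klf9, a transcription factor gene, 1.55-fold lower.

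Serpina12, the vaspin gene, was low and uneven. It was at 8.51, 19.8, 5.53 and 8.75 CPM in WT chow and at 34.3, 56.0, 37.0 and 9.45 CPM in WT HFD, with WT HFD 4 inside the chow range. In HuMgat2 it was at 11.9, 0.645, 9.35 and 18.8 CPM on chow and at 17.6, 29.3, 10.6 and 15.2 CPM on HFD. It was called in no comparison: the change on HFD was 1.69 ± 0.63 SE (adjusted p = 0.0808) in WT and 0.85 ± 0.63 SE (adjusted p = 0.416) in HuMgat2. The WT change passed without WT HFD 4 (2.00, adjusted p = 0.027), without HuMgat2 chow 14, its lowest library (adjusted p = 0.0225), with limma and quality weights (2.09, adjusted p = 0.0107) and with no filter (adjusted p = 0.0418).

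Serpina4-ps1, the transcribed relative of the kallistatin gene, had the widest range of the 10. It was at 20.5, 67.5, 32.2 and 28.3 CPM in WT chow, 36.8, 181, 90.4 and 2.78 CPM in WT HFD and 21.2, 4.78, 25.9 and 23.9 CPM in HuMgat2 chow. In HuMgat2 HFD it was at 1.59, 1.99, 1.11 and 0.807 CPM, below every other library. It was 13.6-fold lower on HFD than on chow in HuMgat2 (log2 change -3.77 ± 0.90 SE, adjusted p = 0.00961) and 56.6-fold below WT HFD (log2 change -5.82 ± 0.93 SE, adjusted p = 0.000641). The size of the difference from WT HFD rests on single libraries of that uneven group: it was -4.99 without WT HFD 2, its highest, and -6.22 without WT HFD 4, its lowest. The diet change in WT was 1.07 ± 0.71 SE (adjusted p = 0.337). The interaction was -4.84 ± 1.15 SE (adjusted p = 0.0219), with values from -5.29 to -4.01 when a library was left out, the latter without WT HFD 2. Its call was lost without WT chow 5 (adjusted p = 0.0502).

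Among the other 8 clade A genes tested, Serpina1b and Serpina1d followed the Serpina1 members, with falls on HFD in HuMgat2 of 1.85-fold (adjusted p = 0.00664) and 2.13-fold (adjusted p = 0.00173). Of their 100-base windows, 24.6% and 26.3% occurred letter for letter in another Serpina1 copy, so these falls are not independent of those of the members. Serpina9, a gene known from germinal centre B cells and a near neighbour of Serpina12, held 74 counts in the 4 HuMgat2 chow libraries, 90 in WT HFD and 3 in HuMgat2 HFD. The ratio was 28.0 against HuMgat2 chow, with an exact 95% counting interval of 9.23 to 139. On HFD, Serpina11 in HuMgat2 stood 1.94-fold below WT (adjusted p = 0.00365). Serpina3g, another Serpina3 copy, was higher on HFD in WT (3.46-fold, adjusted p = 0.0299). The call was lost without WT HFD 4 (log2 0.70, adjusted p = 0.12) and without WT chow 5, 6 or 8. It was also lost with limma and quality weights (log2 0.68, adjusted p = 0.11) and with only the 2 groups fitted (adjusted p = 0.104). Serpina10, an inhibitor of factor Xa, was at 594 CPM in WT HFD 4 and at 81.7 to 129 CPM in the other 15 libraries. It was not called for HFD in WT (log2 1.33 ± 0.44 SE, adjusted p = 0.0501) and its value rests on WT HFD 4, without which it was 0.22 (adjusted p = 0.298). With limma and quality weights it was 0.23 (adjusted p = 0.502). It was called without WT HFD 1, 2 or 3 (adjusted p = 0.0346, 0.0247 and 0.0178) and with another filter (adjusted p = 0.0216 with none and 0.0488 with a mean of at least 1 CPM). The remaining 2, Serpina3f and Serpina3h, were called in no comparison.

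Serpins of other clades were called both ways. Of 15 tested, 2 were higher and 2 lower on HFD in WT, against 8.37% and 6.74% of all genes. On HFD in HuMgat2, 2 were higher and 3 lower, against 7.56% and 6.40%. Without WT HFD 4 the counts were 1 and 2 in WT and 2 and 5 in HuMgat2, beside 7.69% and 7.01%, and 10.7% and 8.58%. Serpine2, an inhibitor of thrombin and urokinase, was lower in both (4.15-fold in WT and 6.04-fold in HuMgat2), and Serpinh1, a collagen chaperone, was higher in both (1.53-fold and 1.70-fold). Serpinb1a, an intracellular inhibitor of neutrophil proteases, was 7.99-fold above WT in HuMgat2 on HFD (adjusted p = 0.000999). It was 3.70-fold lower on HFD than on chow in WT (adjusted p = 0.0215), so part of that difference was a fall in WT.

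Among proteases that clade A serpins inhibit, 9 of 15 were tested, and 1 was higher and 3 lower on HFD in HuMgat2 (5 lower without WT HFD 4). Over all genes tested, 7.56% were higher and 6.40% lower in that comparison (8.58% lower without WT HFD 4). F11, the coagulation factor XI gene, was 2.44-fold lower there (adjusted p = 0.00121), Klkb1, the plasma prekallikrein gene, 1.52-fold lower (adjusted p = 0.0224), and Plau, the urokinase gene, 2.92-fold higher (adjusted p = 0.0053). Elane, which encodes neutrophil elastase, the main target of alpha-1 antitrypsin, lay between 0 and 1.03 CPM and was highest in WT HFD 4. Prtn3, the gene of a related neutrophil protease, was at 1.37, 1.13, 0.486 and 42.7 CPM in WT HFD and between 0 and 0.139 CPM in the other groups.

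The genes of serpin folding and export were called at about the share of all genes. Of 13 tested chaperone, cargo receptor and degradation genes, 1 was higher and 0 lower on HFD in each genotype, and both times it was Serpinh1, against 8.37% and 6.74% of all genes in WT and 7.56% and 6.40% in HuMgat2. Without WT HFD 4, 0 were called in WT, and 1 was higher and 2 were lower in HuMgat2. On HFD, Mcfd2, part of a cargo receptor for secreted glycoproteins, was 1.34-fold higher in HuMgat2 (adjusted p = 0.00403). Of 16 hepatocyte transcription factors, 4 were higher and 2 lower on HFD in WT, and 1 was higher and 2 lower in HuMgat2. The shares of all genes are those given above. In HuMgat2 they were Foxa2 (1.52-fold higher, adjusted p = 0.0437), Foxa3 (2.18-fold lower, adjusted p = 0.0123) and Hnf4a (1.40-fold lower, adjusted p = 0.0304). Hnf4a was also lower on HFD in WT (1.46-fold, adjusted p = 0.0176).

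Where Serpina1e, Serpina3k and Serpina4-ps1 fell, so did most genes that male liver expresses more than female liver. Of 15 such genes, 0 were higher and 11 lower on HFD in HuMgat2, with a median log2 change of -2.05, and 0 were higher and 1, Elovl3, was lower on HFD in WT. Over all genes tested, 7.56% were higher and 6.40% lower in HuMgat2, and 8.37% and 6.74% in WT. Between genotypes on HFD, 9 of the 15 were lower (7.56% of all genes), and 8 had a negative interaction (2.26% of all genes). C8b, a complement gene, was 5.48-fold lower on HFD in HuMgat2 (adjusted p = 4.56e-06). Hsd3b5, a steroid-metabolising gene, was at 50.2 to 195 CPM in HuMgat2 chow and at 0.213 to 0.531 CPM in HuMgat2 HFD. It was also low in WT HFD 4, at 6.59 CPM against 101 to 138 CPM in the other WT HFD libraries, as Serpina4-ps1 was. Of 10 tested female-biased genes, 5 were higher and 3 lower on HFD in HuMgat2, and 1 was higher and 4 lower on HFD in WT. Cyp3a44, Cyp3a41a and Cyp3a16 of that list were lower in both genotypes. Of 10 genes of growth hormone signalling, which sets sex bias in liver, 1 was higher and 1 lower on HFD in WT. On HFD in HuMgat2, 1 was higher and 2 lower, with Bcl6 7.13-fold lower (adjusted p = 0.00108) and Igf1 1.44-fold lower (adjusted p = 0.0264).

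The genes outside the serpins whose log2 CPM most resembled each member over the 16 libraries differed between the subfamilies. These are descriptions over 14089 genes with a mean of at least 1 CPM, and the libraries share groups and depth. WT HFD 4 stood far above the others for Serpina3n (2567 CPM), Serpina3m (786 CPM), Saa1 (7574 CPM), Saa2 and Lcn2. The correlations of these genes lean on that library and were not computed without it. For Serpina3n they were Saa2, Saa1 and Lcn2 (Pearson r = 0.982, 0.978 and 0.977), and for Serpina3m Plcg2, Tnfrsf1a and Tlr13 (0.958, 0.952 and 0.952). For Serpina3k they were C8b, Mug1 and Hsd3b5 (0.958, 0.951 and 0.949), and for Serpina4-ps1 Ces3b, Dock8 and Nsd3 (0.933, 0.933 and 0.929). Serpina1a and Serpina1c had the same 3, Gm8893, Os9 and Acadsb (0.938 to 0.967), while Serpina1e had Rbm33 and Gjb1 (0.960 and 0.954). For Serpina6 they were Chmp2b, Gucy1a1 and Bche (0.911, 0.903 and 0.897), for Serpina7 Gal3st1, Pigp and Nsmce1 (0.894, 0.887 and 0.869), and for Serpina12 Rarres1, Wipi1 and Gm2788 (0.932, 0.847 and 0.835). Between members, Serpina3m and Serpina3n correlated at 0.934, Serpina3k and Serpina4-ps1 at 0.842, and Serpina3k and Serpina3n at -0.239.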

How the data were processed

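Whole-number read counts per gene were deposited by the authors in 1 table of 16 libraries, and 64 sample records (4 per library) describe them. Liver RNA (15 mg of tissue, RNA integrity above 7) was made into stranded total RNA libraries with ribosomal RNA removed, per the labels. Per the submitters' processing notes, reads were aligned with STAR 2.7 to mm39, and DESeq2 1.26.0 was used. Per the file headers, featureCounts 2.0.1 counted read pairs without strand on Ensembl 103 genes, so sense and antisense reads are not told apart. Near-identical genes have near-equal counts, so reads with several matches appear in more than 1 gene.

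Counts were fitted with edgeR 4.0.16 (filterByExpr, TMM, quasi-likelihood test, R 4.3.3), with all 16 libraries in 1 model of 4 groups and Benjamini-Hochberg adjustment over 17318 genes. Levels are TMM-scaled CPM, and standard errors are the log2 change over the root of the F statistic. The procedure was tested on simulated counts. Alternatives were DESeq2 1.42.0, limma 3.58.1 (voom with quality weights), other scaling and filters, fits of 2 groups, gene classes left out, summed copies, and each library left out; list counts without WT HFD 4 were added after values were seen. Library numbers run from 1 to 16 and pair no libraries. Sequences are GENCODE transcripts and RefSeq promoters of GRCm38; its coordinates are not those of the count table. Intervals cover counting error only.

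The members, gene lists and tests were chosen with earlier results of these data known. Genes named are the 10 members, the other clade A serpins tested, genes of the lists among the 4 smallest adjusted p in a comparison, and the 3 genes most correlated with each member, of which 1 is not reported here. Levels of Mogat2, Alb, Saa1, Saa2, Lcn2, Prtn3, Elane, Ddx3y, Xist and Hsd3b5 were added after values were seen.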

Additional observations from a re-analysis of the deposited data

Results flagged for a closer look

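In groups of 4 libraries, 1 library stood far from the other 3 for 11 of 72 levels checked over 18 clade A genes, by Dixon's criterion. The criterion flags about 1 in 20 groups of independent, normally distributed values. The genes checked share libraries and some share reads, so the 11 of 72 cannot be set against that rate. Of the 11, 5 were the library WT HFD 4, high for Serpina3n (2567 CPM), Serpina3m (786 CPM), Serpina10 (594 CPM), Serpina3g (15.7 CPM) and Serpina3f (14.5 CPM). HuMgat2 HFD 12 was high for Serpina3f (3.09 CPM) and Serpina3h (1.08 CPM). WT HFD 1 was high for Serpina6 (176 CPM) and HuMgat2 chow 16 for Serpina11 (23.3 CPM). WT chow 8 was low for Serpina3k (3610 CPM) and HuMgat2 chow 13 for Serpina3g (0.775 CPM).

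The diet response differed between genotypes, by the interaction term of edgeR, for Serpina1e (log2 -1.42), Serpina3k (log2 -2.0), Serpina4-ps1 (log2 -4.84), Serpina9 (log2 -4.75) and Serpina11 (log2 -0.99). The value of Serpina9 rests on 3 counts in HuMgat2 HFD. The call of Serpina11 was lost without any 1 of 13 of the 16 libraries, with log2 values from -1.13 to -0.74 over all 16.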

How the results depend on the processing

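No paired analysis was possible because library numbers run from 1 to 16 and no number is shared between groups. Of the values of the 10 members with 1 library left out, 775 kept direction and side of the threshold, 11 lost a call, 8 gained one and 6 turned sign. Under the other settings 320 kept both, 2 lost a call, 15 gained one and 3 turned sign.

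For HFD in WT, the count of members higher was 2 with limma and quality weights and with no filter, 0 with only the 2 groups fitted and 0 with copies summed, and 1 to 2 with a library left out. The count lower was 0 with only the 2 groups and with copies summed, and 0 to 1 with a library left out. For HFD in HuMgat2, 2 were higher with limma and with only the 2 groups, and 1 to 2 with a library left out; 3 of 6 features were lower with copies summed. For HuMgat2 against WT on HFD, 5 were lower with DESeq2 and with limma. For the interaction, 1 was positive with DESeq2, limma and no filter, 0 to 1 with a library left out, and 5 were negative with DESeq2 and limma. Without WT HFD 4, an alternative for gene lists chosen after seeing the data, the acute phase list had 8 higher and 1 lower in WT and 2 higher and 8 lower in HuMgat2, against 15 and 0, and 0 and 1, with all libraries.

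Signs that turned belong to values that were not called. With limma they were Serpina3f at -0.21 (HFD in WT), 0.05 (HuMgat2 against WT on HFD) and 0.46 (interaction), Serpina11 at -0.07 (genotypes on chow), Serpina3m at 0.26 and Serpina3n at 0.15 (genotypes on HFD) and Serpina3m at 0.06 (interaction). With a library left out, log2 values for HFD in WT ran from -0.043 to 0.24 for Serpina6, -0.19 to 0.52 for Serpina9 and -0.17 to 1.17 for Serpina3f. For HFD in HuMgat2, Serpina3h ran from -0.14 to 0.87. Between genotypes on chow, they ran from -0.22 to 0.14 for Serpina11, -0.63 to 0.40 for Serpina9, -0.59 to 0.42 for Serpina12, -0.042 to 0.29 for Serpina3g and -0.44 to 0.21 for Serpina3h. Between genotypes on HFD, Serpina3m ran from -0.39 to 0.32 and Serpina3n from -1.39 to 0.18. In the interaction, Serpina3f ran from -0.90 to 0.43, Serpina3h from -1.12 to 0.002 and Serpina3m from -0.62 to 0.10. The cause was not tested. Levels near 1 CPM rest on few counts, so small changes of Serpina3h and Serpina9 were not detectable at this depth.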
